A study of Mus musculus with 2 samples.

Results

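Trpc4 cells were GABAergic neurons of the corticoseptal boundary that held transcripts of Trpc4, a cation channel of the TRPC family. They were taken from single-cell RNA profiles of mouse embryos at E16.5, with 1 library from wild-type (WT) tissue and 1 from Tcf4f/f;Emx1Cre (Tcf4 cKO) tissue. In the cKO, Cre under Emx1 control deletes the floxed part of Tcf4, which encodes a basic helix-loop-helix E protein. Emx1 marks progenitors of the dorsal telencephalon, and most telencephalic GABAergic neurons arise from ventral progenitors outside that lineage. The labels give neither the number nor the sex of the embryos nor the genotype at Tcf4 or Emx1 of the WT tissue. With 1 library per genotype, no test between genotypes exists, and every interval below is at 95% and covers counting error only. UMIs, the molecule tags that are counted, also cluster in single cells, so the intervals are narrower than the spread between embryos would be.

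The cells were chosen by raw UMIs: at least 2 of Trpc4, at least 2 of Gad1 and Gad2 together, at most 1 of St18, at most 2 of Dlx2, at most 1 of Lhx6 and at most 1 of Lhx8. Gad1 and Gad2 encode the enzymes that make GABA, and the other 4 genes encode transcription factors of young or medial ventral neurons. The rule found 412 of 19630 cells, 197 of 8964 in WT and 215 of 10666 in cKO. They are compared with the other cells that hold at least 2 Gad1 and Gad2 UMIs, called other Gad cells here, 2407 in WT and 2569 in cKO. Levels are UMIs summed over a group of cells and given as counts per 1000000 UMIs of that group (CPM). The chosen cells had medians of 10227 UMIs in WT and 9321 in cKO, against 8927 and 8036 in other Gad cells. No barcode of a Trpc4 cell was shared between the libraries, while 23 barcodes of all cells were.

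TRPC4 forms calcium-permeable cation channels that open downstream of receptors coupled to Gq and phospholipase C. In the adult rodent brain its transcript is known for its high level in the lateral septum, a GABAergic nucleus that receives hippocampal input. GRM5, the metabotropic glutamate receptor mGluR5, is one such Gq-coupled receptor. PRDM12 is a zinc-finger transcription regulator best known from nociceptive sensory neurons, and ECEL1 is a membrane protein of the endothelin-converting enzyme family that marks growing and injured neurons.

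The 3 marker genes that the rule did not use were all higher in Trpc4 cells than in other Gad cells in both libraries. These markers came with the definition of the cells and were picked with results of these data known, so the values describe the cells and are no test. Prdm12 (ENSMUSG00000079466, mm10 chr2:31640037-31655795, plus strand) stood in Trpc4 cells at 94.3 CPM (81.8 to 108) for WT and 87.5 CPM (75.8 to 101) for cKO. In other Gad cells it stood at 32.2 and 35.5 CPM. Grm5 (ENSMUSG00000049583, chr7:87584168-88134907, plus strand) had 209.8 (WT) and 191 CPM (cKO) in Trpc4 cells, against 37.8 and 59.5 CPM in other Gad cells. The ratio was 5.55 (4.95 to 6.21) in WT and 3.20 (2.87 to 3.57) in cKO, so the receptor was higher in Trpc4 cells of both libraries. Ecel1 (ENSMUSG00000026247, chr1:87147655-87156521, minus strand) stood at 63.3 and 90.2 CPM in WT and cKO Trpc4 cells and at 31.8 and 31.6 CPM in other Gad cells. Trpc4 itself (ENSMUSG00000027748, chr3:54156035-54318471, plus strand), which the rule used, had 319 (WT) and 315 CPM (cKO).

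The markers did not fill the population evenly. Of the 197 WT Trpc4 cells, 30 held no UMI of Prdm12, Grm5 or Ecel1, 66 held 1 of the 3 genes, 73 held 2 and 28 held all 3. In cKO these numbers were 25, 83, 77 and 30 of 215 cells. To compare shares at equal depth, each cell was thinned to 3350 UMIs. Prdm12 was then found in 26.4% of WT and 24.7% of cKO Trpc4 cells, against 9.10% and 9.81% of other Gad cells. Grm5 was found in 33.5% and 34.9% of Trpc4 cells, against 7.94% and 12.2% of other Gad cells. Ecel1 was found in 15.7% and 26.0%, against 8.64% and 9.11%. Endothelial cells, which should lack all 3 genes, had shares of 0 for Prdm12 and Grm5 in both libraries and 0 and 2.94% for Ecel1, over 37 WT and 34 cKO cells whose median depths before thinning were 28199 and 35062 UMIs.

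**Figure D1:**
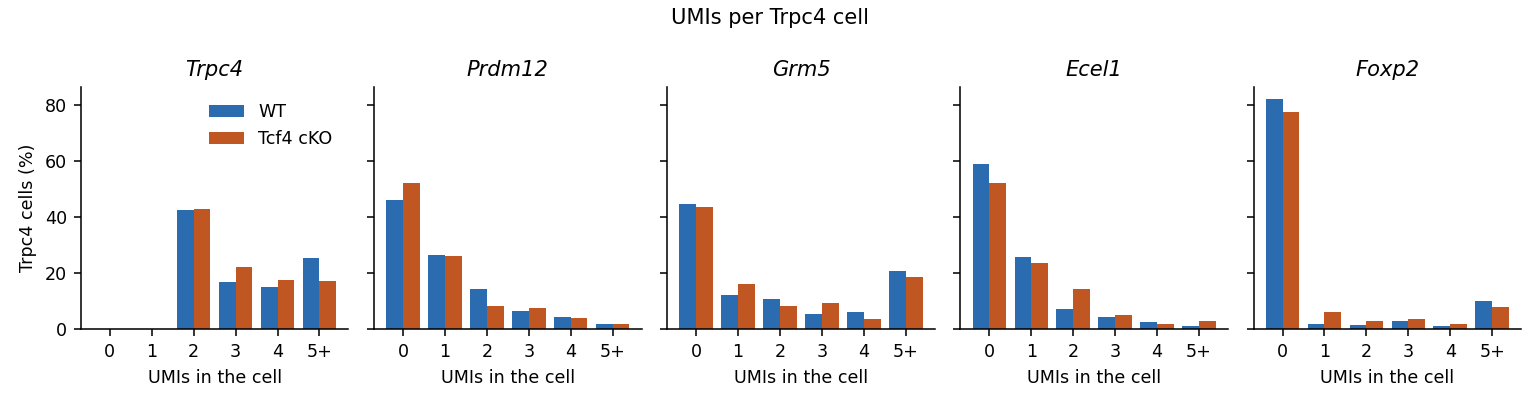
Share of Trpc4 cells (percent, y axis) with a given number of UMIs per cell (x axis, 5+ means 5 or more) of Trpc4, Prdm12, Grm5, Ecel1 and Foxp2, in WT (197 cells, blue) and Tcf4 cKO (215 cells, orange). Trpc4 starts at 2 by the rule, while Grm5 and Foxp2 have many cells at 0. The 5+ bar pools all higher counts, so its height alone does not show a separate group.

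The levels just inside and outside the Trpc4 threshold were graded. Among Gad cells inside the other limits, Grm5 stood in WT at 22.7 CPM with 0 Trpc4 UMIs, 78.0 CPM with 1, 148 CPM with 2, 147 CPM with 3 and 288 CPM with 4 or more. The same classes in cKO gave 45.7, 134, 135, 187 and 257 CPM. Prdm12 stood in WT at 14.1 CPM with 0 UMIs, 54.0 CPM with 1 and 86.0 CPM with 2, and in cKO at 29.5, 59.7 and 70.8 CPM. Cells with 1 Trpc4 UMI, 139 in WT and 142 in cKO, lay above those with 0 for both genes, and in cKO they held about as much Grm5 as the chosen cells with 2. Cells with at least 2 Trpc4 UMIs that failed one of the 4 upper limits, 267 in WT and 244 in cKO, also held Grm5 (127 and 172 CPM) and Prdm12 (85.2 and 69.9 CPM). Of these, 222 in WT and 176 in cKO were over the Dlx2 limit.

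**Figure D2:**
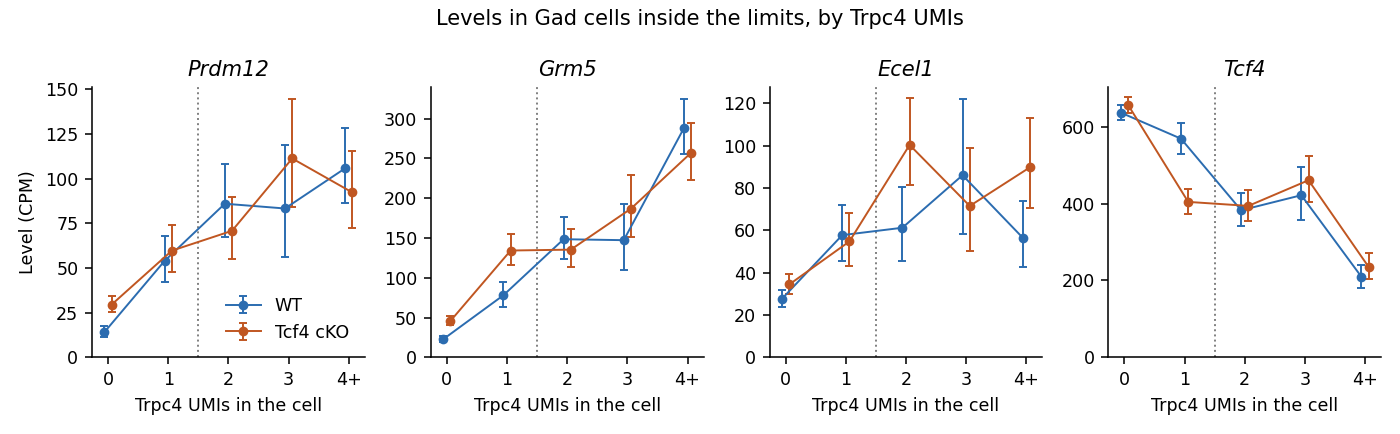
Levels in CPM (y axis) of Prdm12, Grm5, Ecel1 and Tcf4 in Gad cells inside the St18, Dlx2, Lhx6 and Lhx8 limits, by the number of Trpc4 UMIs in the cell (x axis), with exact Poisson intervals at 95%. Cells to the right of the dotted line are Trpc4 cells. Grm5 is highest and Tcf4 lowest in the cells with 4 or more Trpc4 UMIs in both libraries.

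Genes of GABAergic neurons that the rule did not use were present. Slc32a1, the vesicular GABA transporter, had 100.3 (WT) and 119 CPM (cKO) in Trpc4 cells, against 5.94 CPM in WT cells with under 2 Gad UMIs. Dlx5 and Dlx6, homeobox genes of forebrain GABAergic neurons, had 308 and 170 CPM (WT) and 327 and 130 CPM (cKO). Of the 11 genes of the GABAergic list, 0 were 2-fold higher and 1 was 2-fold lower in both libraries than in other Gad cells. Over all 14857 genes tested, 0.155% were 2-fold higher and 0.855% 2-fold lower in both libraries.

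Septal factors were present but mostly at the level of other Gad cells. Zic1, a zinc-finger factor of the septum and dorsal midline, was found in 193 of 197 WT and 209 of 215 cKO Trpc4 cells, at 1029 and 918 CPM. Other Gad cells held nearly the same, 1009 and 980.5 CPM, and WT cells with under 2 Gad UMIs held 319 CPM. Of the 17 septal regional factors, 0 were 2-fold higher than in other Gad cells in both libraries and 1 was lower, Nkx2-1. This factor of the medial ventral telencephalon stood at 12.9 and 18.6 CPM against 75.8 and 120 CPM. Other Gad cells include the cells over the Lhx6 and Lhx8 limits, and the rule's part in this gap was not tested. Six3, a homeobox factor of the developing septum, was present but below other Gad cells, at 132 and 181 CPM against 266 and 260 CPM. Meis2, Zfhx3 and Prdm16, 3 transcription factors on the list, stood 1.79 to 2.61 times as high as in other Gad cells. Of a list of 16 genes of the adult lateral septum, 12 passed the minimum of 20 UMIs, and 2 of these were 2-fold higher in both libraries, Trpc4, which the rule fixed, and Foxp2. Sst and Nts, 2 neuropeptide genes of that list, were 2-fold lower, and Crhr2, Esr1, Drd3, Penk and Oxtr had 0 or 1 UMI in all Trpc4 cells. Met, which encodes a receptor tyrosine kinase, had 26 UMIs in WT and 19 in cKO, with ratios of 7.53 and 3.87 to other Gad cells.

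Beyond the markers, 23 of 14857 genes (0.155%) were at least 2-fold higher in Trpc4 cells in both libraries and 127 (0.855%) at least 2-fold lower, on a log2 scale with 5 CPM added. Receptors, signalling and adhesion genes stood among the higher ones. Hs6st2, a heparan sulfate 6-O-sulfotransferase, had 81.3 and 84.9 CPM against 24.6 and 25.4 CPM in other Gad cells. Gfra1, the coreceptor of GDNF, had 50.4 and 74.3 CPM against 15.2 and 18.7 CPM. Rgs2, a regulator that turns off Gq signalling, had 181 and 172 CPM against 60.3 and 67.7 CPM. All 3 genes lay about as far above other Gad cells in one library as in the other, with ratios of 2.53 to 3.98.

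Other genes at least 2-fold higher in both libraries included Slc8a1, a sodium-calcium exchanger (ratios of 2.65 in WT and 2.21 in cKO), Prkcb, a protein kinase C (2.31 and 2.51), Tox, an HMG-box factor (2.99 and 2.24), and Rbfox1, a splicing factor of maturing neurons (2.67 and 2.29). With cells thinned before the choice, the log2 ratio of Rbfox1 in cKO was -0.40. The cell-surface genes Mdga2, Flrt2 and Dscam had ratios of 2.20 to 3.42. Slit1, a secreted axon guidance cue, had ratios of 2.76 and 2.24. Foxp2, a forkhead factor of striatal, septal and other projection neurons, had ratios of 2.56 and 2.33. Gap43, a growth cone protein, was just under 2-fold in cKO, at 1193 and 1275 CPM against 521 and 647 CPM (ratios of 2.29 and 1.97). These genes were ranked by how far they stood from other Gad cells, so the order is a description of these 2 libraries.

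Genes of dividing cells and of medial ventral neurons stood among the lower ones. Top2a, a topoisomerase of dividing cells, stood at 18.5 and 43.8 CPM against 152 and 135 CPM. Ccnd2, a cyclin of neural progenitors, stood at 201 and 135 CPM against 550 and 448 CPM. Of the 14 cell cycle genes, 8 were 2-fold lower in both libraries and 0 higher, and the list's median log2 ratio was -1.59 in WT and -1.34 in cKO, against -0.04 and -0.04 over all genes tested. Kitl and Zbtb20 had ratios of 0.26 and 0.38 and of 0.34 and 0.41. Lhx8, St18, Dlx2 and Lhx6 were also lower, which the rule fixed. In the list of MGE interneuron genes, 5 of 12 were 2-fold lower in both libraries: Lhx6, which the rule fixed, Sst, Maf, Sox6 and Npy. Cells over the St18, Dlx2, Lhx6 and Lhx8 limits were kept out of Trpc4 cells and stayed among other Gad cells. Gad cells over the Dlx2 limit numbered 1200 in WT and 1180 in cKO. Genes found together with any of these 4 genes, here and in other lists, can be lower by the rule alone. These values are thus no test, and the rule's part in the low cell cycle genes was not tested. In the list of CGE interneuron genes 3 of the 8 tested were lower, Prox1, Calb2 and Adarb2, and Vip had no UMI in either library. The neuronal maturation list had 1 of 30 genes 2-fold higher in both libraries, with medians of 0.31 and 0.22.

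**Figure D3:**
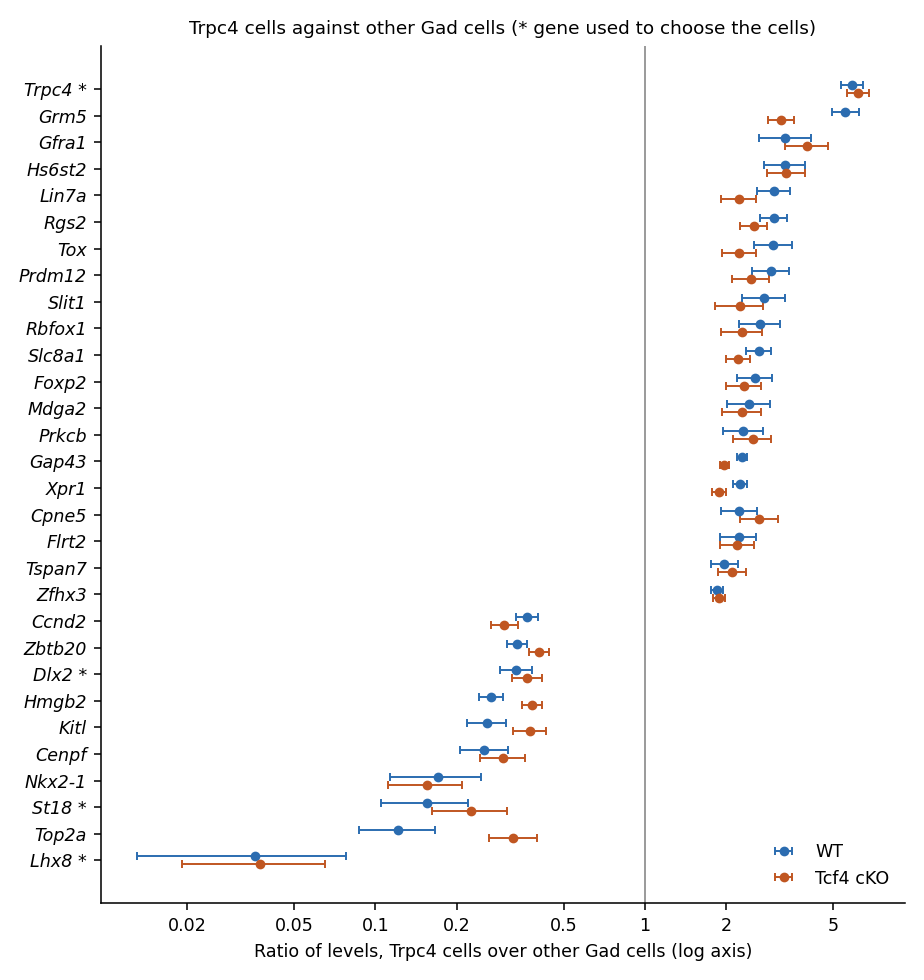
Ratio of the level in Trpc4 cells to that in other Gad cells (x axis, log scale) for the 20 genes highest and 10 lowest by the naming rule, with exact conditional binomial intervals at 95%, in WT (blue) and Tcf4 cKO (orange). An asterisk marks genes that the choice of cells fixed. The genes were chosen for going the same way in both libraries, and Grm5 and Top2a show the widest gaps between them.

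Genes upstream of the channel were measured as a group. Of 26 genes of the Gq and phospholipase C pathway, 24 passed the minimum. In both libraries 2 of these were 2-fold higher, Grm5 and Prkcb, and 0 were lower, against 0.155% and 0.855% of all genes tested. Grm5 is a marker picked with results of these data known, so its call is no test. Gnaq, the Gq alpha subunit, stood at 322 and 330 CPM in Trpc4 cells and 263 and 287 CPM in other Gad cells. Plcb1 and Plcb4, phospholipases C, stood at 43.4 and 62.4 CPM in WT and at 45.5 and 45.1 CPM in cKO. Among the TRPC genes, Trpc1 had 14.8 and 13.7 CPM, Trpc5 had 2 UMIs in WT and 6 in cKO, and Trpc6 had 0 UMIs in Trpc4 cells of both libraries, where 3 UMIs per library are taken as the limit of detection. Of 16 ionotropic glutamate receptor genes and 13 GABA receptor genes tested, 0 passed 2-fold in both libraries. Neuropeptide genes were sparse, with 4 of 13 tested 2-fold lower (Nts, Sst, Npy and Tac1), while Pnoc, which encodes nociceptin, had 169 and 138 CPM.

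Other gene groups gave few genes past 2-fold in both libraries, where all genes tested gave 0.155% higher and 0.855% lower. Among 18 genes of basic helix-loop-helix, E protein and Id factors, 0 were higher, and the lower ones included Tcf4 and Id3 (26.3 and 15.0 CPM against 83.1 and 36.1 CPM). Of 18 immediate early genes 1 was higher, Egr3, at 60.5 and 48.2 CPM against 21.5 and 21.1 CPM. Prdm12 was the 1 gene called among the 10 PRDM factors tested. It is a marker picked with results of these data known, so its call is no test. Of 32 axon guidance receptor genes 2 were lower, Robo3 and Plxna2, and of 43 cell adhesion genes 1 was higher, Flrt2. Of the 15 striatal projection neuron genes tested, Foxp2 was higher and Tac1 lower. Neural progenitor genes had 2 of 10 lower, Slc1a3 and Sox9, and astrocyte genes 2 of 8, Slc1a3 and Apoe, with Slc1a3, a glutamate transporter of glia, on both lists. The lists of 24 voltage-gated sodium and calcium channel genes, 18 peptide processing genes, 16 peptide and monoamine receptor genes and 18 nuclear receptor genes tested had 0 in either direction.

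Foxp2 split the Trpc4 cells into a majority with none and a minority with much. It had 0 UMIs in 162 WT and 167 cKO cells, 1 UMI in 4 and 13, and at least 2 UMIs in 31 and 35. The split was chosen after the values were seen and is a description, and the same cells define and show it. Cells with at least 2 Foxp2 UMIs had median depths of 9952 UMIs in WT and 8932 in cKO, against 10244 and 9300 in cells with 0. Pbx3, a homeobox cofactor, stood at 269.6 CPM in Foxp2 cells and 81.5 CPM in cells without Foxp2 in WT, and at 136 and 41.6 CPM in cKO. Runx1t1, a transcriptional corepressor, was 6.11 times as high in WT (4.66 to 8.03) and 3.41 times in cKO (2.53 to 4.59). Sp9, a zinc-finger factor of ventral telencephalic neurons, moved the other way, at 60.2 CPM in Foxp2 cells and 391 CPM in cells without Foxp2 in WT, and at 75.8 and 398 CPM in cKO.

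Zic2, Zic4 and Zic5 were lower in Foxp2 cells as well, with ratios of 0.32 to 0.37 in WT and 0.47 to 0.69 in cKO, and Meis2 was higher, with ratios of 1.52 and 1.59. Trpc4 and Prdm12 did not separate the classes, with ratios from 0.90 to 1.33 and intervals that held 1. Grm5 was lower in Foxp2 cells (ratios of 0.47 and 0.67) and Ecel1 higher (100.4 against 56.6 CPM in WT and 123 against 82.0 CPM in cKO). Not every gene kept its direction: Nfib, a transcription factor of neural progenitors and young neurons, had ratios of 0.43 (0.37 to 0.50) in WT and 1.44 (1.29 to 1.59) in cKO. Neurod2, a glutamatergic gene, was also higher in cKO Foxp2 cells, at 112 against 29.7 CPM, and doublet calls covered 9 of the 35 cKO and 3 of the 31 WT Foxp2 cells. Their part in that difference was not tested.

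Cells with at least 2 Grm5 UMIs, 85 in WT and 86 in cKO, were compared with the 88 and 94 that had 0. Their median depths differed, 11495 against 9486 UMIs in WT and 10864 against 8041 in cKO. Hs6st2 stood at 128 against 21.3 CPM in WT and at 127 against 43.4 CPM in cKO. Gria1, an AMPA receptor subunit, was 2.44 and 2.58 times as high, and Gfra1 was 2.84 and 2.15 times as high. Ccnd2 was lower, with ratios of 0.27 and 0.26, as were Nfia (0.47 and 0.47) and Dlx6os1 (0.55 and 0.47). Prdm12 and Trpc4 differed little, with ratios from 1.04 to 1.21. Rgs2 and Slc8a1, also higher in Trpc4 cells than in other Gad cells, had ratios of 1.68 to 2.30 with Grm5.

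**Figure D4:**
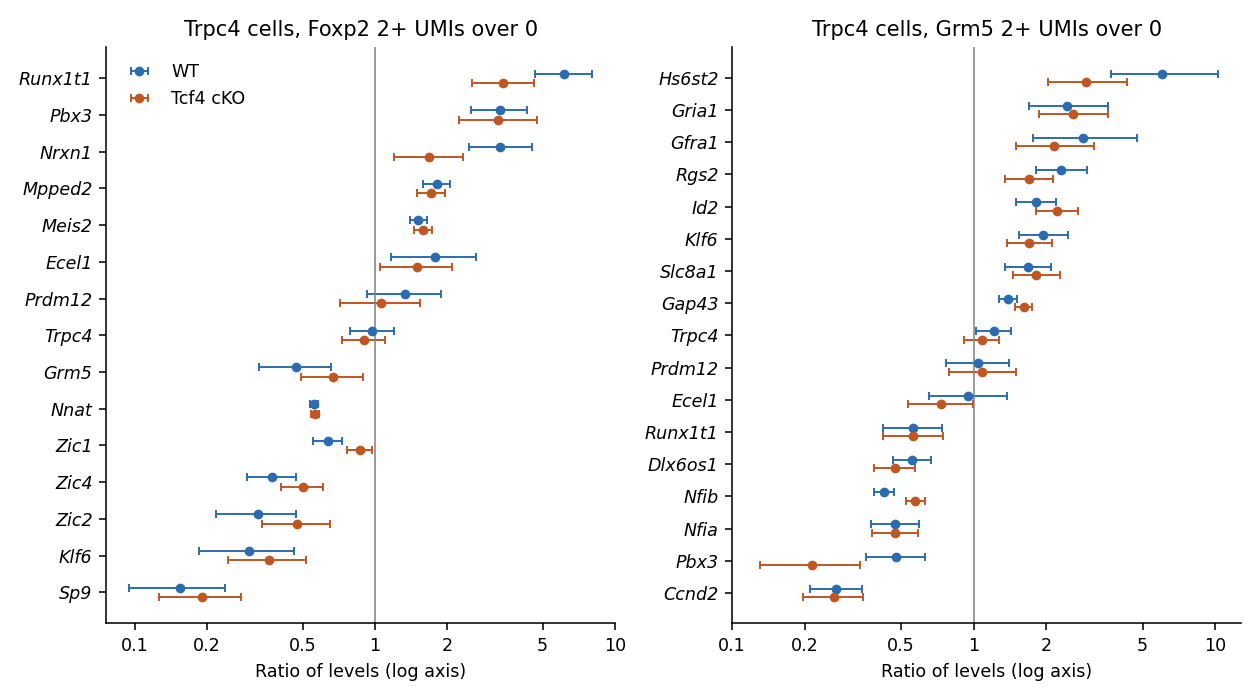
Ratio of levels (x axis, log scale) within Trpc4 cells between cells with at least 2 UMIs and cells with 0 UMIs of Foxp2 (left) or Grm5 (right), with exact conditional binomial intervals at 95%, in WT (blue) and Tcf4 cKO (orange). Runx1t1 and Pbx3 are high and Sp9, Klf6 and Zic2 low with Foxp2, while Hs6st2, Gria1 and Gfra1 are high and Ccnd2 and Pbx3 low with Grm5.

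The targeted gene was low in Trpc4 cells of both libraries. Tcf4 (ENSMUSG00000053477, chr18:69343356-69689079, plus strand) had 313 CPM (290 to 337) in the WT library and 352 CPM (328 to 377) in the cKO library. The cKO level was 1.12 times the WT level (1.01 to 1.25), against 0.89 times in other Gad cells. Other Gad cells held 795 and 709 CPM, and cells with under 2 Gad UMIs 1784 and 1306 CPM. Single cells bore much of it, up to 47 UMIs in WT and 55 in cKO, and at equal depth 50.8% of WT and 40.9% of cKO Trpc4 cells held a UMI. Tcf4 in Trpc4 cells did not keep a direction: without cells called doublets the ratio was 0.91 (0.79 to 1.05), and without cells rich in the RNA of another cell type it was 0.87 (0.75 to 1.01). The labels do not say which part of Tcf4 is floxed, and a 3' tag outside it would be counted from a deleted allele too, so this level is no check of the deletion.

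The share of Trpc4 cells differed little between the libraries. They made up 2.20% of WT cells (1.90 to 2.52, Clopper-Pearson) and 2.02% of cKO cells (1.76 to 2.30), a difference of -0.18 percentage points (-0.59 to 0.22). Among Gad cells they made up 7.57% in WT (6.58 to 8.65) and 7.72% in cKO (6.76 to 8.78), a difference of 0.16 points (-1.27 to 1.58). The composition of the Gad cells around them was not the same in the 2 libraries. Gad cells over the Lhx8 limit made up 12.9% in WT and 23.2% in cKO, and those over the St18 limit 20.8% and 16.6%. With the 4 upper limits dropped, Trpc4 cells made up 0.87 percentage points less of all cells in cKO (-1.48 to -0.28).

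Between the libraries, 248 of 10343 genes (2.4%) stood at least 1.5-fold higher in cKO Trpc4 cells and 201 (1.94%) at least 1.5-fold lower. In other Gad cells, which hold about 10 times the UMIs, the same genes gave 0.387% and 0.503%. Of the genes past 1.5-fold in Trpc4 cells, 21 of the higher (8.47%) and 25 of the lower (12.4%) were past it the same way in other Gad cells. Colec12, a scavenger receptor gene on chromosome 18, went from 1 UMI to 217 UMIs in Trpc4 cells, or 0.46 to 95.9 CPM, and from 3.85 to 97.6 CPM in other Gad cells. Syt4, a synaptotagmin gene on the same chromosome as Tcf4 and Colec12, stood at 63.3 and 127 CPM in Trpc4 cells and 67.8 and 118 CPM in other Gad cells. Snhg11, a noncoding RNA of neurons, stood at 144 and 252 CPM, with ratios of 1.75 in Trpc4 cells and 1.94 in other Gad cells. All 3 genes were thus higher in cKO in both groups of cells, and with 1 WT UMI of Colec12 no fold is given for it in Trpc4 cells.

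Several neuronal genes had larger cKO to WT ratios in Trpc4 cells than in other Gad cells, a difference that 1 library per genotype cannot test. Resp18, a dense-core vesicle protein, stood at 25.0 and 60.6 CPM, a ratio of 2.43 (1.76 to 3.39), against 1.07 in other Gad cells. Nectin3, an adhesion protein, stood at 33.3 and 54.4 CPM, a ratio of 1.63 (1.21 to 2.22), against 0.82 in other Gad cells. Slitrk1, a synaptic adhesion protein, had ratios of 1.71 and 1.07. Ecel1 had a ratio of 1.42 (1.14 to 1.78) in Trpc4 cells and 1.00 in other Gad cells. Isl1, a LIM homeobox factor of striatal and septal neurons, went from 199 to 268 CPM, a ratio of 1.35 against 1.11 in other Gad cells, and Six3 had a ratio of 1.37 against 0.98. Foxp1 and Sp8, forkhead and zinc-finger factors, had ratios of 1.24 and 1.34 in Trpc4 cells and 0.70 and 0.86 in other Gad cells.

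Pbx3 was among the genes that were lower in cKO. It stood at 115 and 59.2 CPM, a ratio of 0.52 (0.42 to 0.64), against 0.84 in other Gad cells. It was lower in cKO in Trpc4 cells with Foxp2 and in those without, by the values above, but with all cells thinned before the choice, which left 43 WT and 49 cKO cells, its log2 ratio was 0.60. Ntrk2, the BDNF receptor TrkB, had 120 (WT) and 78.2 CPM (cKO), a ratio of 0.65. Sox2 and its overlapping noncoding transcript Sox2ot had ratios of 0.74 and 0.73 in Trpc4 cells. Because the 2 genes overlap, their reads may not be separable. Grm5 had a ratio of 0.91 (0.79 to 1.04) in Trpc4 cells, against 1.57 (1.45 to 1.71) in other Gad cells.

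**Figure D5:**
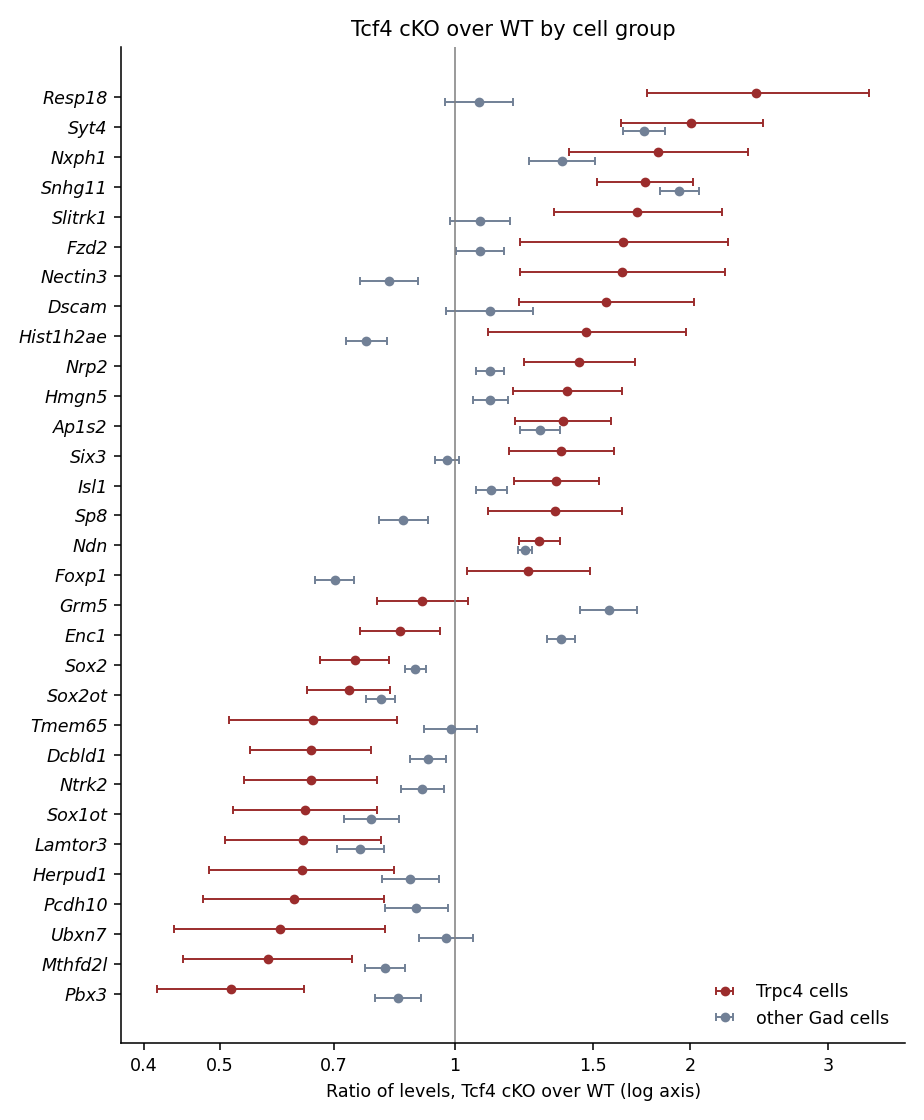
Ratio of levels in Tcf4 cKO to WT (x axis, log scale) in Trpc4 cells (red) and other Gad cells (grey) for genes named by the genotype rules, with exact conditional binomial intervals at 95%. Colec12 and Ttr are left out because their ratios lie far outside the axis. Nectin3, Sp8 and Foxp1 lie above 1 in Trpc4 cells and below 1 in other Gad cells, and Enc1 the other way round.

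Cell adhesion genes had 6 of 38 tested at least 1.5-fold higher in cKO Trpc4 cells and 0 lower, against 2.4% and 1.94% of all genes tested. Alcam, an immunoglobulin-family adhesion molecule, stood at 14.3 and 48.6 CPM, a ratio of 3.39 (2.26 to 5.23), against 1.20 in other Gad cells. Cntn1, a contactin, had 20 UMIs in WT and 55 in cKO, and Chl1, a relative of L1, had ratios of 1.60 and 1.38 in the 2 groups of cells. Ntm, Ncam2 and Tenm1 were the other 3. The median log2 ratio of the adhesion genes tested was 0.055 in Trpc4 cells and 0.163 in other Gad cells. The highest Trpc4 cell held 221 UMIs of the adhesion list in cKO and 98 in WT. Of 10 neural progenitor genes, 3 were at least 1.5-fold lower in cKO Trpc4 cells (Fabp7, Hes5 and Slc1a3) and 1 higher (Pax6), with a list median of -0.13 on the log2 scale. Of the 5 astrocyte genes tested, 2 were lower (Slc1a3 and Apoe), with a median of -0.20. In other Gad cells the medians of the same genes were further below 0, at -0.50 for progenitor and -0.78 for astrocyte genes. Fabp7, a lipid-binding protein of radial glia, had ratios of 0.56 in Trpc4 cells and 0.61 in other Gad cells. Sst had 20 UMIs in WT and 4 in cKO Trpc4 cells, each from 4 cells, and 1 WT cell held 17 of the 20, so no direction is read from it.

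Markers of other cells differed between the libraries. Of the 10 glutamatergic genes, 9 passed the minimum, 8 stood at least 1.5-fold higher in cKO Trpc4 cells and 0 lower, with a summed level of 100.3 CPM in WT and 320 CPM in cKO, against 188 and 316 CPM in other Gad cells. Neurod6, a factor of pyramidal neurons, stood at 27.7 and 110.1 CPM. Trpc4 cells with at least 10 UMIs of this list numbered 5 in WT and 20 in cKO, and doublet calls covered 14 of 197 WT (7.11%) and 29 of 215 cKO Trpc4 cells (13.5%). Without doublet calls, 3 of the 4 glutamatergic genes that still passed the minimum were 1.5-fold higher. Cells rich in another type's RNA include those with at least 10 UMIs of this list. Without them, 1 glutamatergic gene passed the minimum and 0 were 1.5-fold higher. The 5 endothelial genes summed to 0.92 CPM in WT and 0.88 CPM in cKO and the 6 microglial genes to 3.23 and 1.77 CPM, near 0. The part of these cells in the other differences was not tested. Of 45 named ratios between genotypes, 41 kept their sign without doublet calls and 39 without the cells rich in another type's RNA. Most of these genes were named for such ratios in these same cells, so kept signs are no test. Resp18 and Pbx3 had log2 ratios of 1.15 and -0.96 without doublet calls. Leaving out the cells rich in another type's RNA gave log2 ratios of 0.74 and -1.02 for the same genes, while thinning turned the direction of Pbx3, as given above.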

How the data were processed

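The authors deposited 1 matrix of raw UMI counts per library, with no normalization and with empty droplets included. Per the labels, tissue was sliced, dissected and enzymatically dissociated, and libraries followed the 10x Genomics 3' protocol. Cell Ranger 7.1.0 is named in the file headers, and Cell Ranger 2.1.1 and mm10 in the submitters' processing notes. The annotation release and intron setting are not given in the sources used here. For coordinates, 32158 of 32285 gene identifiers were matched to GENCODE vM21. WT cells held 99145927 UMIs and cKO cells 101919733.

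Cells had at least 3350 UMIs, 500 genes and at most 10% mitochondrial UMIs. UMIs were summed per library and group of cells. Levels carry exact Poisson intervals, ratios exact conditional binomial intervals, shares Clopper-Pearson intervals, and share differences Newcombe intervals. Log2 ratios have 5 CPM added. Genes needed 20 UMIs over the cells compared. Doublet calls came from scrublet (scanpy 1.11.5, assuming 6%), and called cells were kept in the values given. Free RNA, read from droplets of 10 to 100 UMIs, made up an estimated 2.35% of Trpc4 cells' UMIs in WT and 1.14% in cKO. The code was tested on simulated data.

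Genes were named by rule: the markers and gate genes, the 20 highest and 10 lowest against other Gad cells in both libraries, the 15 highest and 15 lowest between genotypes, the 5 highest and 5 lowest by the difference of that ratio from other Gad cells, and members of 35 gene lists, all ranked by the bound nearest to no change. Except for markers, gate genes and lists, these needed 50 UMIs, a UMI in 10 cells, and 50 CPM where higher, and left out mitochondrial, ribosomal protein, haemoglobin and Y-linked genes, Xist and Tsix. Runx1t1, Nfib, Nfia, Klf6 and the Foxp2 and Grm5 splits were chosen after their values were seen. The members, markers and lists were chosen with earlier results of these data known. A few genes that these rules or lists hold are not reported here.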

Additional observations from a re-analysis of the deposited data

Results flagged for a closer look

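Gnrh1, which encodes gonadotropin-releasing hormone, was called because it stood higher in cKO in Trpc4 cells and lower in cKO in other Gad cells. Trpc4 cells held 5 UMIs in WT and 2126 in cKO, while other Gad cells held 3549 and 2169. The log2 ratio in Trpc4 cells minus that in other Gad cells was 9.21. Trpc4 cells with at least 50 UMIs of Gnrh1 numbered 0 in WT and 3 in cKO, and the highest held 792 UMIs. Other Gad cells with at least 50 numbered 3 in each library, and the highest held 1277 UMIs in WT and 931 in cKO. Ttr, a choroid plexus transcript, went the opposite way, with a difference of -5.79: 1 WT Trpc4 cell held 3705 of the library's 3805 Ttr UMIs in these cells, against 128 UMIs over all cKO Trpc4 cells. Among other Gad cells, 1 WT cell held 4203 of 5668 Ttr UMIs and 1 cKO cell 8550 of 9901. Neither difference was tested.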

How the results depend on the processing

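No paired analysis was possible because each genotype is 1 library. Counts of genes past a fold moved most with the settings. With 1 CPM added in place of 5, 54 genes were higher and 399 lower than in other Gad cells, and 515 and 437 higher and lower in cKO; with 20 CPM, these were 5, 29, 36 and 22. A minimum of 100 UMIs left 53 and 39 between genotypes. Leaving out doublet calls gave 293 lower than in other Gad cells, and other Gad cells inside the limits gave 206. A minimum of 1 Trpc4 UMI gave 13 higher and 56 lower than in other Gad cells and 91 lower in cKO, 3 UMIs gave 398 lower in cKO, and 4 Gad UMIs gave 307. Thinning before the choice left 43 WT and 49 cKO cells and gave 67 higher and 416 lower than in other Gad cells. Dropping the 4 upper limits gave 102 higher and 107 lower in cKO and share differences of -0.87 and -1.33 points. The Tcf4 ratio was 0.91 without doublet calls, 0.91 at 1 Trpc4 UMI, 1.43 thinned, 0.77 without the upper limits, and, chosen after seeing the data, 0.87 without cells rich in another type's RNA. Thinning reversed the log2 ratio of Rbfox1 against other Gad cells (-0.40 in cKO). Between genotypes, it reversed the log2 ratios of Dscam (-1.43), Pbx3 (0.60, and 0.71 relative to other Gad cells) and Dcbld1 (0.29). Dropping the limits turned Ttr to 1.23 and 3.33, and leaving out the rich cells to 0.31 and 0.22, where Hist1h2ae became -0.23 relative to other Gad cells. Against other Gad cells inside the limits Dlx2 had 0.33 and 0.37, and at 1 Trpc4 UMI the endothelial list's median was 0.84 in cKO. The causes were not tested. Named ratios against other Gad cells kept their sign in 907 of 910 recomputed values, and between genotypes in 500 of 540. Most of these genes were named for such ratios in these same cells or were fixed by the rule. The kept signs are thus no test. The sizes of the ratios were less stable. Of 70 ratios against other Gad cells, 47 moved past their interval with comparison cells inside the limits. Thinning moved 51, and a minimum of 1 Trpc4 UMI moved 41.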

Other observations

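Trpc4 was not limited to cells with Gad transcripts. Cells with under 2 Gad1 and Gad2 UMIs and at least 2 of Trpc4 numbered 88 in WT and 106 in cKO. They held Prdm12 at 53.8 and 68.2 CPM and Grm5 at 91.6 and 159 CPM, against 2.47 and 2.96 CPM and 12.2 and 15.8 CPM over all cells with under 2 Gad UMIs. Their Tcf4 level was 889.5 (WT) and 474 CPM (cKO). Whether they are the same neurons with few Gad UMIs was not tested.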
